A study of Mus musculus with 66 samples.

Results

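Crosslinking of the B cell receptor with anti-IgM raised a group of transcripts steeply in mouse B cells within hours, and 10 of them are followed here across every stimulus of the series: Spp1, Plau, Gem, Gng4, Fam83g, Fam167a, Rnf122, Adm, Cd63 and Mreg. They were picked by symbol from 23420 symbols because they stood out as strong responders to anti-IgM, so their rise with anti-IgM is given as a description and carries no test. All 10 were measured in each of 66 RNA-seq libraries and all 10 passed the filter on low values (log2 above 1 in at least 4 libraries), as did 11264 symbols in all. In short, the 10 parted ways once a second signal was present. Added to the cytokine IL-21, anti-CD40 raised Adm, Mreg, Gng4 and Fam83g and lowered Spp1 and Rnf122, and their values lay in the same direction when it joined anti-IgM. IL-21, in turn, raised Spp1 and Gem.

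Every library came from spleen of BALB/c mice of the MEG strain, which carry a B1-8 B cell receptor transgene of the IgM class. Germinal centre (GC) B cells gave 33 libraries and naive B cells the other 33. Cells were purified on beads and cultured for 2 h or 4 h. The labels describe the purification in terms of GC B cells for naive samples as well, and they give no doses, ages or numbers of mice. Every group, unstimulated libraries included, shares the transgenic receptor. The libraries form separately normalized sets, and stimuli are compared only within a set. The 34 libraries of set A were given anti-CD40 (title numbers 1 to 3), IL-21 or the pair of them. The 32 of set B were left unstimulated or were given anti-CD40 (title numbers 4 and 5), anti-IgM or both antibodies. The 28 groups of cell type, stimulus, time and set have 2 or 3 libraries each. Whether replicates came from separate mice or cultures is not stated, so each p-value reflects only how far these libraries scatter, and that scatter may be technical. In bulk samples, fewer cells of a type and less RNA per cell cannot be told apart.

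Values are the authors' log2 values, close to log2 CPM and not corrected for transcript length, so levels are compared between samples of 1 gene and never between genes. Sequencing depth is unknown. In linear terms the summed level of 8 GC markers was 2228 to 3124 in unstimulated GC libraries and 71.3 to 117 in unstimulated naive libraries. The summed level of the 7 measured naive markers was 512 to 825 and 4923 to 7203 respectively. B cell markers were high in both cell types. Macrophages also express Spp1, Plau and Cd63, so the 14 measured macrophage markers were followed too. In set B their summed level was 18.4 to 38.6 without stimulus and 20.0 to 41.4 with anti-IgM in GC libraries, and 114 to 1076 and 106 to 733 in naive libraries. The ranges with and without anti-IgM overlapped in both cell types. Of single markers, Cd68 in GC libraries was 2.21 to 3.03 without stimulus and 3.36 to 4.19 with anti-IgM on the log2 scale, and its part in the results was not tested. Some other lists did not overlap. B cell markers in naive libraries of set B were 8575 to 12819 without stimulus and 2532 to 6045 with anti-IgM. The 4 measured plasma cell markers were 241 to 307 and 415 to 1133 in GC, and 317 to 414 and 688 to 1559 in naive libraries. Stromal and endothelial markers in naive libraries were 30.1 to 146 and 7.89 to 27.5, and naive markers 4923 to 7203 and 3472 to 3623. The 6 measured erythroid and platelet markers in GC libraries were 7.12 to 10.5 and 5.76 to 6.84. The part of these lists in the results was not tested.

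The B cell receptor signals through kinases, calcium and the transcription factors NFAT, AP-1, EGR and NF-kB, and crosslinking it imitates a meeting with antigen. CD40 is the receptor through which T cells help B cells, and it acts chiefly through NF-kB. IL-21 is made by follicular helper T cells and acts through STAT3. In the germinal centre, B cells meet antigen and T cell help in turn, and survival depends on receiving these signals.

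The members differ in role. Spp1 encodes osteopontin, a secreted ligand of integrins and CD44. Plau encodes urokinase, a secreted protease that activates plasminogen. Adm encodes the precursor of adrenomedullin, a secreted peptide that acts on a G protein-coupled receptor. Gem is a small GTPase of the RGK family that inhibits voltage-gated calcium channels, and Gng4 is a gamma subunit of heterotrimeric G proteins. Fam83g encodes a protein that binds casein kinase 1, and Rnf122 a membrane-bound RING ubiquitin ligase. Cd63 is a tetraspanin of late endosomes, lysosomes and exosomes. Mreg encodes melanoregulin, which takes part in the transport of melanosomes and lysosome-related organelles. Fam167a is little characterised.

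In GRCm38 coordinates Spp1 is at chr5:104435118-104441050, Plau at chr14:20836660-20843385, Gem at chr4:11704457-11714752, and Gng4 at chr13:13784059-13827896. Fam83g is at chr11:61684091-61709951, Fam167a at chr14:63436394-63465498, and Rnf122 at chr8:31111820-31131482. Adm is at chr7:110627661-110629820, Cd63 at chr10:128900989-128912822, and Mreg at chr1:72159442-72212307 on the minus strand. RefSeq promoter windows of GRCm38.p6 were at hand for 6 of the 10, namely Spp1, Gng4, Fam83g, Adm, Cd63 and Mreg. Shown here are the 250 bases before the start of the member that anti-CD40 lowered most and of the members it raised most, each 5′ to 3′ on the gene's strand, with the core GGAAA of NFAT sites (or TTTCC, its reverse complement) in capitals. Spp1 is at chr5:104434861-104435110 (+), Adm at chr7:110627407-110627656 (+), Gng4 at chr13:13783809-13784058 (+) and Mreg at chr1:72212315-72212564 (-).
Spp1: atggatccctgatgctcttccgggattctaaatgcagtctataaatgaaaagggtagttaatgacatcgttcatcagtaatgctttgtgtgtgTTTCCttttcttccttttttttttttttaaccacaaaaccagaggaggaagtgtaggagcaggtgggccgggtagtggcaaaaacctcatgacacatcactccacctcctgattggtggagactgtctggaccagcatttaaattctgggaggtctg
Adm: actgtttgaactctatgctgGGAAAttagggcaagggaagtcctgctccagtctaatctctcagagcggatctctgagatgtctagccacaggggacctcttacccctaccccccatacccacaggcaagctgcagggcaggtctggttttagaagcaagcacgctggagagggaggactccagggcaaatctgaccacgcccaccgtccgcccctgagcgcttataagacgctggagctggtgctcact
Gng4: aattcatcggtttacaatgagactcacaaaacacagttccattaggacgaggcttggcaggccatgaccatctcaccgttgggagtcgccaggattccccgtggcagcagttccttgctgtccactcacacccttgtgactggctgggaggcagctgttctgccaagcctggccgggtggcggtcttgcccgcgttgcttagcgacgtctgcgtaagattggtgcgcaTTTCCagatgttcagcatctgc
Mreg: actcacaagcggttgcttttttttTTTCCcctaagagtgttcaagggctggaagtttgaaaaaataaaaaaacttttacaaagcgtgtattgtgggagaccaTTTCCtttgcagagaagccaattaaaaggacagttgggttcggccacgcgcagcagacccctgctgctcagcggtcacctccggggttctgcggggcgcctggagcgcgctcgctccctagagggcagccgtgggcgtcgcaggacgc
Counted from the start, the core lies at -157 in Spp1, -230 in Adm, -22 in Gng4, and -226 and -148 in Mreg. This pentamer is common: 55.6% of all 32851 promoter windows of the same length hold it on either strand. The longer motifs are scarcer. AP-1 sites (TGANTCA) are in 6.75% of windows, CRE sites (TGACGTCA) in 1.55%, EGR sites (GCGNGGGCG) in 4.7%, NF-kB sites in 3.9% and CArG boxes in 1.47%. None of these 5 occurs in the 4 windows shown, on either strand. Outside them, the Fam83g window has an EGR match at -9, and a second annotated start of Gng4 has an NF-kB match at -20.

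Anti-IgM alone was followed in set B. The differences that follow are means of the 2 h and 4 h differences with their standard errors, on the log2 scale, and they are the values the members were picked for. All 4 anti-IgM libraries lay above all 4 unstimulated ones for 9 members in GC cells and for 9 in naive cells, with Fam167a the exception in each. Over all genes tested, 6.36% in GC and 7.87% in naive cells showed that separation, and since the rule used this contrast nothing is read from the counts.

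Spp1 in GC cells stood at 2.82 and 3.20 without stimulus at 2 h and at 2.80 and 1.92 at 4 h. With anti-IgM it was 5.29 and 5.73 at 2 h and 5.90 and 5.99 at 4 h. In GC cells every anti-IgM library was above every unstimulated one, by 3.04 ± 0.36 on average or 8.24-fold. In naive cells Spp1 went from 4.21 and 3.59 at 2 h and 2.81 and 2.21 at 4 h to 8.31 and 7.48 at 2 h and 7.88 and 7.01 at 4 h, a difference of 4.47 ± 0.36 or 22.1-fold. By size of rise Spp1 ranked 11 of 11264 genes in GC and 3 in naive cells.

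Plau showed its steepest rise in naive cells. There it was 4.98 and 6.0 at 2 h and 3.80 and 4.39 at 4 h without stimulus, against 8.58 and 10.02 at 2 h and 8.05 and 9.28 at 4 h with anti-IgM (4.19 ± 0.50, 18.3-fold). GC levels were far lower, from -0.22 to 1.94 without stimulus and from 2.80 to 3.22 with anti-IgM (1.92 ± 0.50). The lowest anti-IgM library was above the highest unstimulated library in both cell types.

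Rnf122 and Gem had their larger rise in GC cells. Rnf122 there was 3.16 to 3.39 in the 4 unstimulated libraries and 5.70 to 6.32 with anti-IgM (2.72 ± 0.14), whereas in naive cells it began higher, at 4.68 to 5.07, and reached 5.74 to 6.0 (1.08 ± 0.14). Gem went from 3.33 to 4.10 up to 6.12 to 7.65 in GC cells (3.02 ± 0.18) and from 4.95 to 5.40 up to 6.29 to 7.68 in naive cells (1.75 ± 0.18). For both genes the cell types differed without stimulus and met with anti-IgM: the GC level minus the naive level was -1.59 ± 0.14 and then 0.06 ± 0.14 for Rnf122, and -1.39 ± 0.18 and then -0.11 ± 0.18 for Gem.

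Cd63 rose by about as much in each cell type, 3.54 ± 0.27 in GC and 3.42 ± 0.27 in naive cells. The GC value rests partly on readings near the bottom of the scale, since unstimulated GC libraries were at -1.73 and -2.49 at 2 h and 0.77 and 0.36 at 4 h. With readings under 0 set to 0 the GC difference was 2.48. Anti-IgM brought Cd63 to 1.44 and 2.70 at 2 h and 3.32 and 3.60 at 4 h in GC cells. Adm was also low in unstimulated GC cells, from -0.84 to 0.13, and rose to between 0.98 and 1.47 (1.71 ± 0.18), while in naive cells it went from 1.98 to 3.33 up to 4.74 to 5.24 (2.37 ± 0.18).

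Of the remaining members, Gng4 rose by 2.59 ± 0.24 in GC and 2.45 ± 0.24 in naive cells, Mreg by 1.71 ± 0.15 and 1.64 ± 0.15, and Fam83g by 1.52 ± 0.12 and 3.08 ± 0.12. Fam167a differed by 2.78 ± 0.90 and 2.28 ± 0.90, the largest standard errors among the members. The spread of Fam167a followed the replicate number, as described further on. Standard errors in set B come from a fit without a replicate block, so they include differences between replicates.

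**Figure D1:**
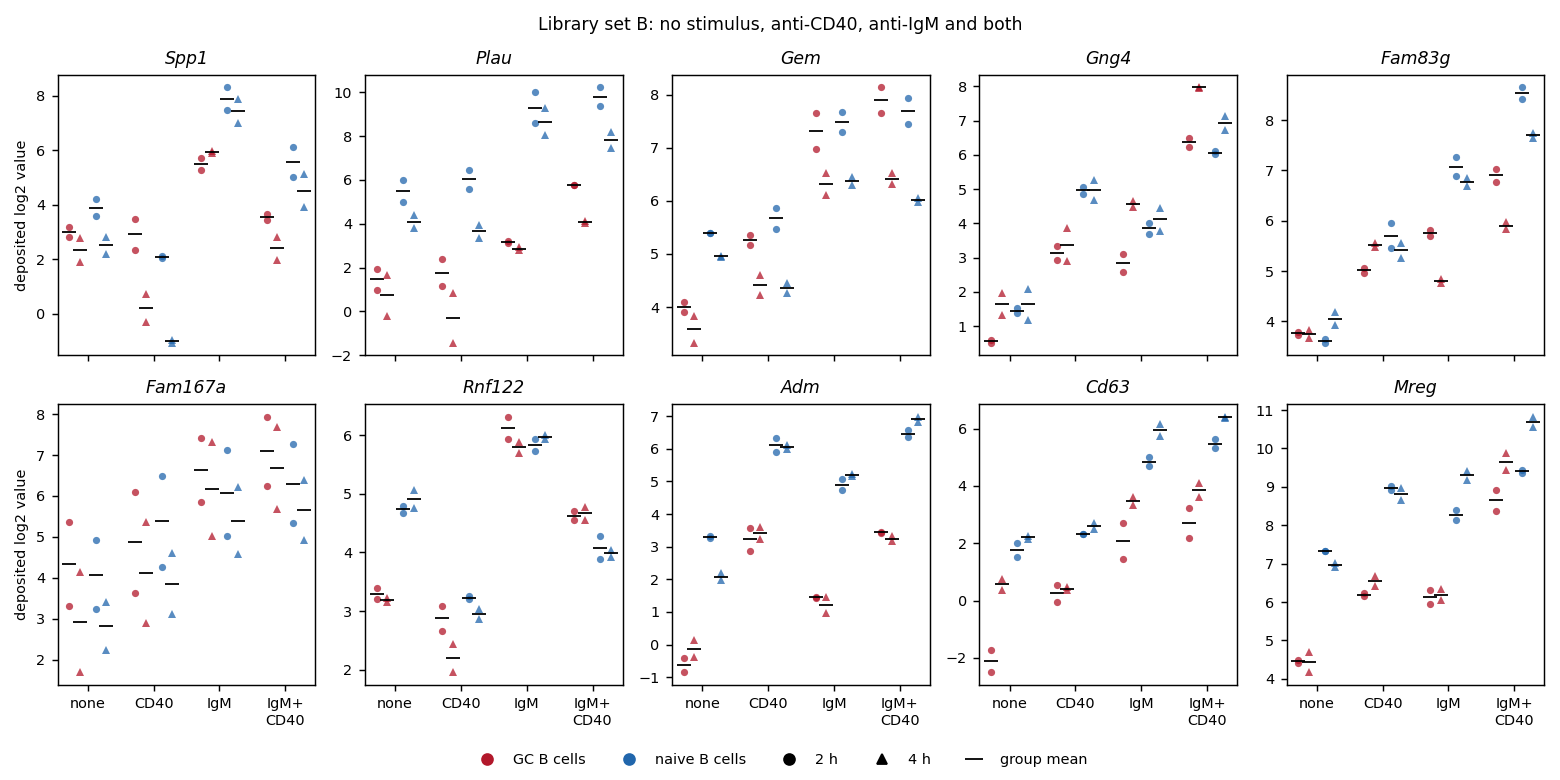
Deposited log2 value of each gene in every library of set B, by stimulus, for GC (red) and naive (blue) B cells at 2 h (circles) and 4 h (triangles), with group means as bars. Spp1 is highest with anti-IgM alone and drops when anti-CD40 is added, whereas Gng4 and Mreg are highest with both.

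Adding anti-CD40 to anti-IgM divided the members. These values are again descriptions, since the anti-IgM libraries chose the genes. Gng4 was the member with the largest gain: in GC cells it was 2.58 and 3.11 at 2 h and 4.47 and 4.66 at 4 h with anti-IgM, and 6.24 and 6.50 at 2 h and 7.97 and 7.96 at 4 h with both, a gain of 3.46 ± 0.24. Every library with both stimuli lay above every library with either alone. Mreg gained 2.98 ± 0.15 in GC and 1.26 ± 0.15 in naive cells, reaching 9.43 and 9.87 in GC and 10.83 and 10.55 in naive libraries at 4 h. Adm gained 2.01 ± 0.18 and 1.63 ± 0.18, and Fam83g 1.12 ± 0.12 and 1.20 ± 0.12.

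Spp1 and Rnf122 went down. With both stimuli Spp1 in GC cells was 3.43 and 3.68 at 2 h and 2.82 and 1.98 at 4 h, which overlaps the unstimulated range, and its difference from no stimulus was 0.29 ± 0.36. Against anti-IgM alone it was lower by 2.75 ± 0.36 in GC and by 2.63 ± 0.36 in naive cells, where it kept a level 1.84 ± 0.36 above no stimulus. Rnf122 was lower by 1.32 ± 0.14 and 1.87 ± 0.14, and in naive cells all 4 libraries with both stimuli, at 3.88 to 4.28, lay below all 4 unstimulated libraries. Across members, all 4 libraries with both stimuli lay above all 4 unstimulated libraries for 9 members in GC cells (11.6% of all genes tested) and 7 in naive cells (12.4%). The exceptions were Spp1 in GC and Spp1, Fam167a and Rnf122 in naive cells.

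Plau parted by cell type. In GC cells it was 5.79 and 5.75 at 2 h and 4.04 and 4.11 at 4 h with both stimuli, above every library with anti-IgM alone (by 1.90 ± 0.50). In naive cells the difference was -0.17 ± 0.50 and the ranges overlapped. Cd63, Gem and Fam167a changed by 0.54 or less in either direction when anti-CD40 was added, with standard errors of 0.27, 0.18 and 0.90. Dendritic cell markers moved with the addition in naive libraries, from a summed level of 44.1 to 97.2 with anti-IgM to 120 to 210 with both, and their part in these values was not tested. GC markers in GC libraries went from 2101 to 2837 with anti-IgM to 1101 to 1738 with both. Naive markers in GC libraries were 805 to 992 with anti-IgM and 1187 to 1926 with both. The part of these lists was not tested.

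Anti-CD40 alone was set against the same unstimulated libraries, which also served the contrast that chose the members. These values are therefore descriptions with no test. Adm was higher by 3.70 ± 0.18 in GC and 3.41 ± 0.18 in naive cells, which is more than with anti-IgM alone. With readings under 0 set to 0 the GC difference was 3.29, against 1.3 with anti-IgM alone. Gng4 was higher by 2.14 ± 0.24 and 3.43 ± 0.24, Mreg by 1.93 ± 0.15 and 1.74 ± 0.15, and Fam83g by 1.5 ± 0.12 and 1.72 ± 0.12. Spp1 was lower by 1.11 ± 0.36 and 2.65 ± 0.36, with naive libraries down to -1.05 and -0.95 at 4 h. Rnf122 was at -0.70 ± 0.14 and -1.74 ± 0.14, and Plau at -0.36 ± 0.50 and 0.05 ± 0.50. Dendritic cell markers moved with anti-CD40 in naive libraries, from a summed level of 32.2 to 48.7 without stimulus to 178 to 252, without overlap, and their part in these values was not tested. B cell markers in naive libraries, at 8575 to 12819 without stimulus and 5407 to 7871 with anti-CD40, did not overlap either. Nor did plasma cell markers, at 241 to 307 and 415 to 795 in GC and 317 to 414 and 498 to 1202 in naive libraries. GC markers in GC libraries were 2228 to 3124 without stimulus and 1063 to 2126 with anti-CD40. In naive libraries GC markers were 71.3 to 117 and 185 to 242. Naive markers in GC libraries were 512 to 825 and 1006 to 2088, and T and NK cell markers 1.21 to 2.36 and 3.07 to 9.39. The part of these lists was not tested. All 4 anti-CD40 libraries lay above all 4 unstimulated ones for 5 members in GC cells (7.19% of all genes) and 5 in naive cells (7.81%), and 4 of these 5, Adm, Gng4, Mreg and Fam83g, were shared. The fifth was Gem in GC and Cd63 in naive cells. Since the unstimulated libraries helped choose the members, nothing is read from these counts.

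The combined difference can be set against the sum of both single differences on the log2 scale. In GC cells it exceeded the sum for Plau (2.26 ± 0.71), Gng4 (1.32 ± 0.34) and Mreg (1.06 ± 0.21), and fell short for Adm (-1.69 ± 0.25) and Spp1 (-1.64 ± 0.51). With readings under 0 set to 0 the Adm value was -1.28. Plau in GC cells also had readings under 0 at 4 h, down to -0.22 without stimulus and -1.42 with anti-CD40. Spp1 with anti-CD40 at 4 h was down to -0.28 in GC and -1.05 in naive cells. In naive cells Adm again fell short (-1.78 ± 0.25), Gng4 was at -0.92 ± 0.34, Mreg at -0.48 ± 0.21, Plau at -0.22 ± 0.71 and Spp1 at 0.02 ± 0.51. For Adm the level with both stimuli in GC cells, 3.18 to 3.46, lay within the range of anti-CD40 alone, 2.88 to 3.60.

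Set A contains no anti-IgM libraries and so allows tests that the choice of members did not use. The tests come from limma fitted to all 11264 genes of set A, and a gene is called at an adjusted p under 0.05. Adding anti-CD40 to IL-21 gave 8 called members in GC cells, where 56.6% of all genes were called: 4 were higher (25.5% of all genes) and 4 lower (31.1%). The naive comparison gave 9, where 55.1% of all genes were called: 5 were higher (26.6%) and 4 lower (28.6%). With backgrounds of this size the counts themselves say little, and the sizes and directions carry the description.

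Adm was the steepest of these. With IL-21 alone it was at -0.18, -3.42 and -1.80 at 2 h and -1.32, -1.86 and -0.50 at 4 h in GC cells, near the bottom of the scale. With IL-21 plus anti-CD40 it was 3.41, 3.29 and 3.16 at 2 h and 3.56, 3.61 and 3.40 at 4 h. Each of those 6 was above all IL-21 libraries, and the difference was 4.92 ± 0.31 (adjusted p = 1.2e-12), or 3.41 with readings under 0 set to 0. In naive cells it was 2.52 ± 0.33 (adjusted p = 6.1e-07), from 1.76 to 4.07 with IL-21 up to 5.02 to 6.10 with both. The difference between cell types, 2.40 ± 0.46, was called for Adm (adjusted p = 0.00037; 0.89 with readings under 0 set to 0, adjusted p = 0.00018), in a comparison where 11.2% of all genes were called higher in GC cells and 10% lower.

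Mreg, Gng4 and Fam83g rose as well. Mreg in naive cells was 5.39 to 6.83 over the 5 IL-21 libraries and 7.91 to 8.78 over the 6 with both, which did not overlap (2.27 ± 0.30, adjusted p = 1.1e-06). In GC cells the Mreg difference was 2.02 ± 0.28 (adjusted p = 2e-06), with 1 library with both stimuli, at 4.93, inside the IL-21 range. Gng4 rose by 1.59 ± 0.35 in GC (adjusted p = 4e-04) and 2.19 ± 0.37 in naive cells (adjusted p = 2.1e-05). Fam83g rose by 1.5 ± 0.12 and 1.21 ± 0.13 (adjusted p = 2.7e-11 and 8.2e-09).

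Spp1, Rnf122, Plau and Gem fell. Spp1 in GC cells went from 8.65, 8.66 and 8.33 with IL-21 at 4 h to 6.04, 5.89 and 5.59 with both, and from 5.39, 5.08 and 4.70 to 3.96, 3.90 and 3.78 at 2 h. At each time the groups were apart, and the mean difference was -1.94 ± 0.20 (adjusted p = 6e-09). It was -1.37 ± 0.21 in naive cells (adjusted p = 5.1e-06). Rnf122 differed by -0.83 ± 0.21 in GC (adjusted p = 0.0011) and -1.27 ± 0.22 in naive cells (adjusted p = 1.5e-05). Gem moved little, by -0.33 ± 0.09 and -0.40 ± 0.09 (adjusted p = 0.0016 and 0.00047).

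Plau was lower by 0.79 ± 0.21 on the log2 scale in GC and by 0.65 ± 0.22 in naive cells (adjusted p = 0.0023 and 0.016). Without the naive IL-21 2 h replicate 2 the naive value was -0.61 and the adjusted p 0.057, and in a fit of all 66 libraries the adjusted p was 0.13. So in GC cells anti-CD40 went with more Plau beside anti-IgM and with less beside IL-21, in different library sets. That contrast between sets was not tested. Fam167a rose in naive cells only by this test (0.40 ± 0.09, adjusted p = 0.00025; 0.17 ± 0.08 in GC, adjusted p = 0.087; naive adjusted p = 0.59 in a fit of all 66 libraries), and the difference between cell types was not called (-0.24 ± 0.12, adjusted p = 0.17). Cd63 was at -0.27 ± 0.15 in GC and 0.28 ± 0.16 in naive cells, neither called.

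Other markers moved with this comparison. The summed level of the 6 measured neutrophil markers in GC libraries had a median of 75.9 with IL-21 and 37.7 with both stimuli, and that of 6 dendritic cell markers in naive libraries was 21.6 to 43.6 and 88.3 to 171. Macrophage markers overlapped, at 107 to 181 and 68.9 to 209 in GC and 112 to 364 and 111 to 372 in naive libraries. B cell markers in naive libraries were 4678 to 5910 with IL-21 and 2037 to 4187 with both. The 4 measured plasma cell markers were 267 to 328 and 400 to 527 in GC, and 362 to 568 and 681 to 1164 in naive libraries. The part of these marker lists in the result was not tested.

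**Figure D2:**
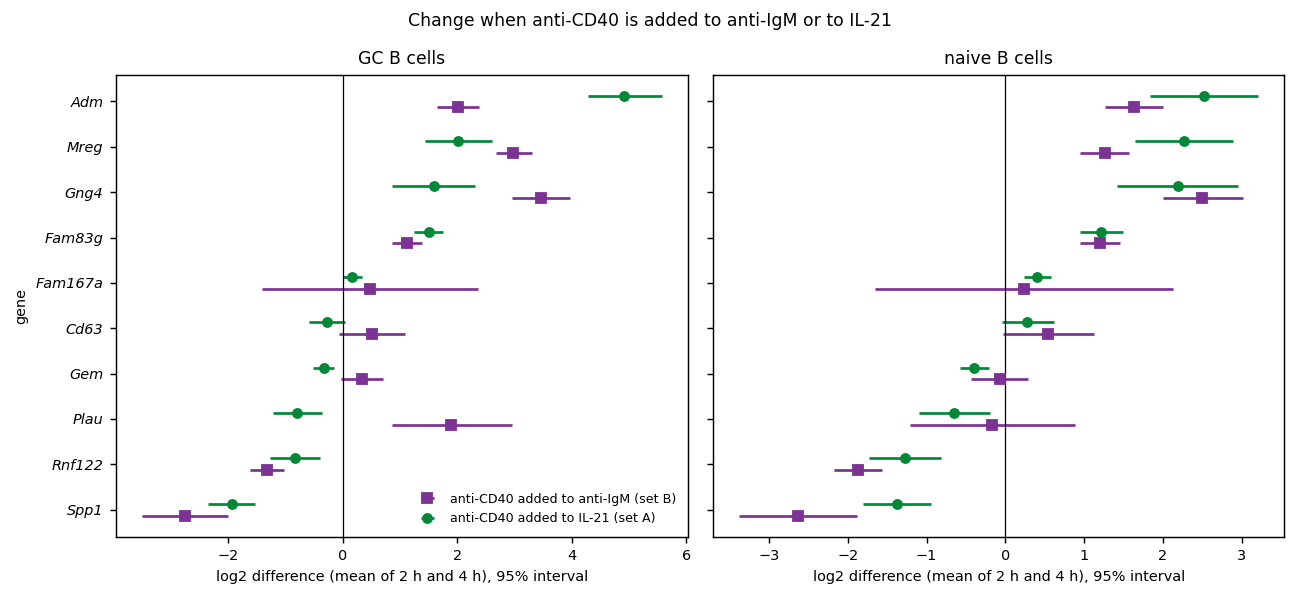
Log2 difference (mean of 2 h and 4 h, with 95% interval) when anti-CD40 was added to anti-IgM in set B (squares) or to IL-21 in set A (circles). Adm, Mreg, Gng4 and Fam83g lie to the right of 0 and Spp1 and Rnf122 to the left in both sets and both cell types, while Plau in GC cells is at 1.90 and -0.79.

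Adding IL-21 to anti-CD40 answered a different question, namely which members the cytokine moved when CD40 was already engaged. By limma, 3 members were called in GC cells (33.2% of all genes were called, 15.4% higher and 17.8% lower) and 5 in naive cells (24.3%, 10.6% higher and 13.7% lower). Spp1 and Gem were the members that rose in both cell types. B cell markers did not overlap in this comparison. They were 7868 to 8777 with anti-CD40 and 4087 to 6962 with both in GC libraries. In naive libraries B cell markers were 4878 to 5953 and 2037 to 4187, and naive markers 4603 to 6459 and 2608 to 3405. The part of these lists was not tested.

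Spp1 rose by 2.59 ± 0.21 in GC (adjusted p = 2.6e-10) and 2.50 ± 0.20 in naive cells (adjusted p = 2e-10), and nearly all of it was seen at 4 h. In GC cells at 2 h it was 3.43 and 3.57 with anti-CD40 and 3.96, 3.90 and 3.78 with IL-21 added, a difference of 0.38 ± 0.32. At 4 h it was 1.92, 1.07 and 0.13 against 6.04, 5.89 and 5.59, a difference of 4.80 ± 0.28. Naive cells gave 0.27 ± 0.28 at 2 h and 4.74 ± 0.28 at 4 h, from 0.94, 1.60 and 1.25 up to 6.43, 5.78 and 5.80. At 4 h no library with IL-21 came near one without it. The difference between the times was not tested. Spp1 was highest in set A with IL-21 alone at 4 h, at 8.65, 8.66 and 8.33 in GC and 7.26, 7.18 and 7.01 in naive cells.

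**Figure D3:**
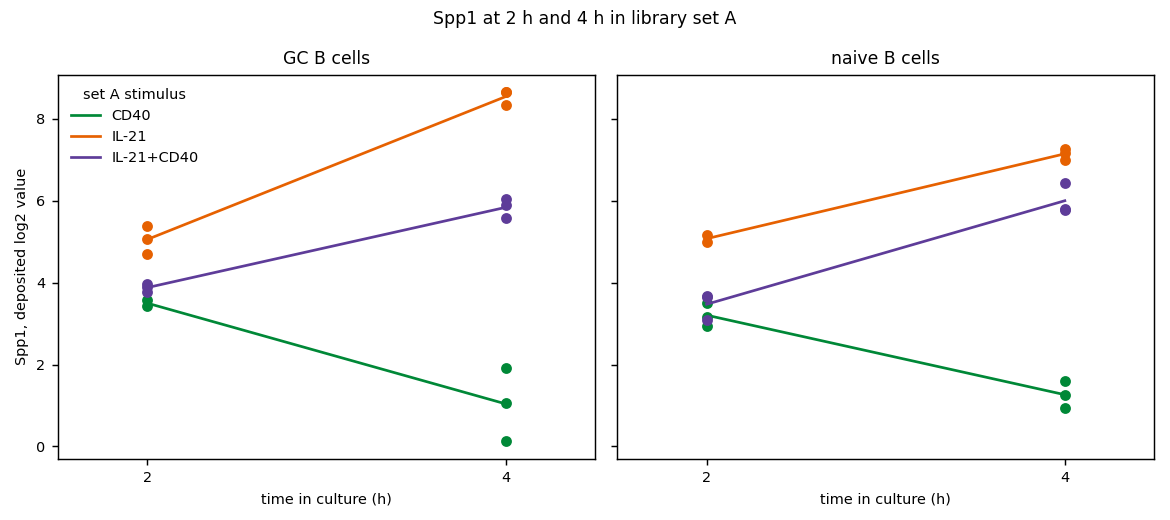
Deposited log2 value of Spp1 in each library of set A (points) with group means joined by lines, at 2 h and 4 h. It climbed in both IL-21 groups and declined with anti-CD40 alone, so that at 4 h the 3 stimuli lay apart in each cell type.

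Gem rose by 1.67 ± 0.09 in GC (adjusted p = 2.5e-15) and 2.40 ± 0.09 in naive cells (adjusted p = 9.3e-20). In naive cells at 4 h it was 4.11, 4.35 and 4.49 with anti-CD40 and 7.18, 7.17 and 7.40 with both, and in GC cells 4.01, 3.69 and 4.09 against 5.43, 5.57 and 5.58. The groups were apart in each. The rise was smaller in GC than in naive cells by 0.73 ± 0.13 when the difference itself was tested (adjusted p = 0.00021), a comparison in which 5.77% of all genes (3.12% higher and 2.65% lower) and 1 member were called.

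Fam167a fell with IL-21, by 0.83 ± 0.09 in GC and 0.44 ± 0.08 in naive cells (adjusted p = 6.5e-09 and 0.00014), though neither was called in a fit of all 66 libraries with a set term (adjusted p = 0.34 and 0.72). The differences in that fit were -0.79 and -0.44. It has no replicate block and takes in set B, where Fam167a differed between replicates of the same group. In naive cells Cd63 was higher by 0.41 ± 0.15 (adjusted p = 0.046) and Plau lower by 0.59 ± 0.21 (adjusted p = 0.04). Neither was called in that fit (adjusted p = 0.2 for Cd63 and 0.29 for Plau). The Cd63 call held without naive anti-CD40 2 h replicate 2, anti-CD40 4 h replicate 1 or the combination at 4 h replicate 3, and was lost without any of the other 9 libraries, with adjusted p up to 0.14. The Plau call held without anti-CD40 replicate 3 of either time, the combination at 2 h replicate 2 or the combination at 4 h replicate 1, and was lost without any of the other 8, with adjusted p up to 0.10. Adm, Gng4, Mreg, Fam83g and Rnf122 were not called in either cell type, with differences between -0.91 and 0.55. With a replicate block limma called Gng4 lower in both cell types, Fam83g in naive and Rnf122 in GC cells (adjusted p of 0.012 or less).

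**Figure D4:**
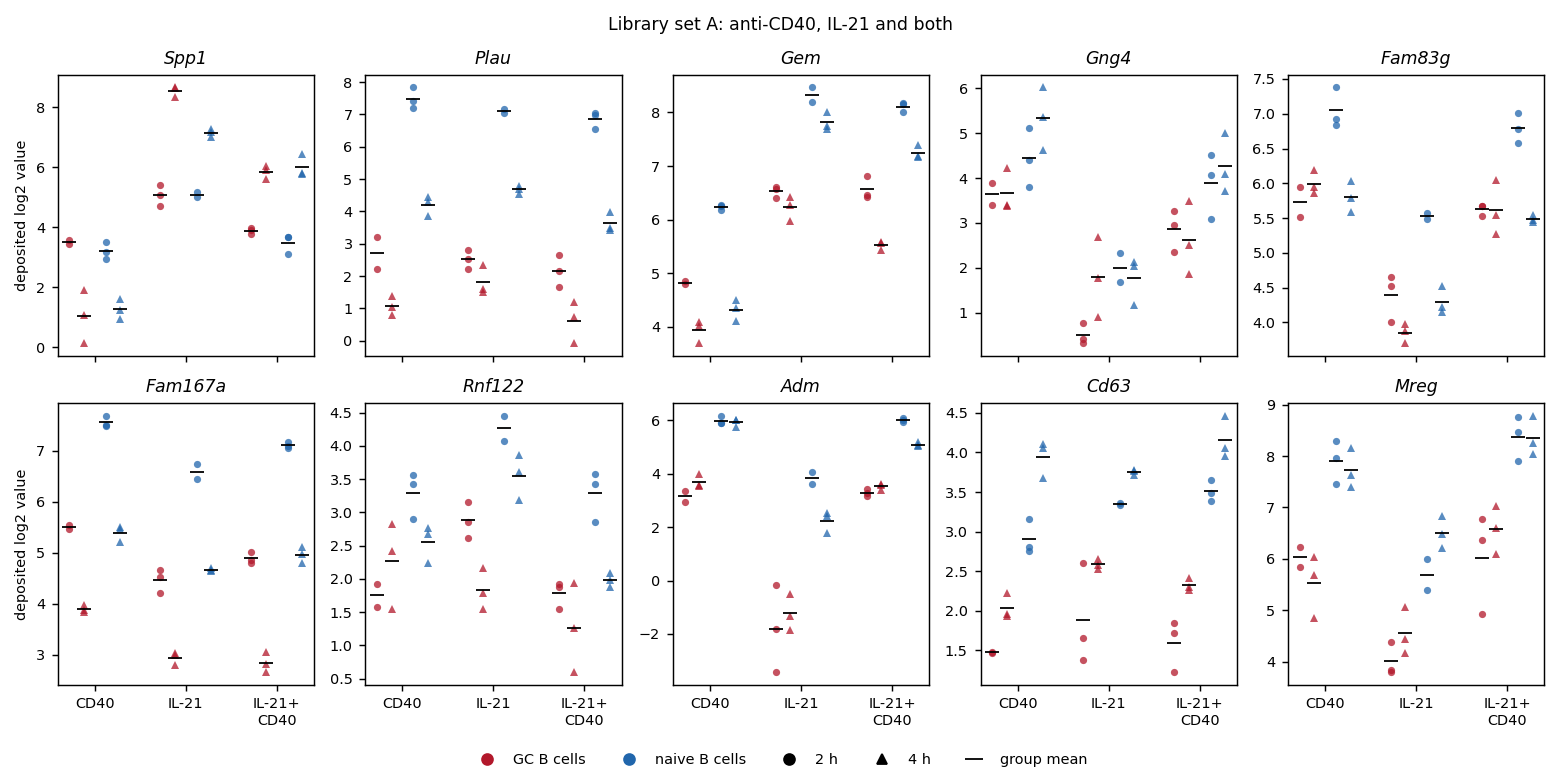
Deposited log2 value of each gene in every library of set A, by stimulus, with colours and symbols for cell type and time and bars for group means. By group means at each time, Spp1 and Gem are higher in the IL-21 groups than with anti-CD40 alone. Adm and Mreg means are lower with IL-21 alone than in either group with anti-CD40. Single libraries overlap for Spp1 in naive cells at 2 h and for Mreg in GC cells.

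GC and naive cells differed in their level of every member in set A, averaged over its 3 stimuli and both times. By limma 9 were lower in GC cells, where 45.1% of all genes were called lower, 39.1% higher and 84.1% either way. The gaps were widest for Plau (-3.84 ± 0.13, adjusted p = 3e-21) and Adm (-3.07 ± 0.19, adjusted p = 6.4e-14). Mreg was at -1.97 ± 0.17, Fam167a at -1.96 ± 0.05, Cd63 at -1.62 ± 0.09, Gem at -1.41 ± 0.05, Rnf122 at -1.19 ± 0.13, Gng4 at -1.11 ± 0.21 and Fam83g at -0.63 ± 0.07. Plau ranged from -0.08 to 3.22 in the 17 GC libraries and from 3.43 to 7.84 in the 17 naive ones, without overlap. Spp1 alone was higher in GC cells, by 0.28 ± 0.12 (adjusted p = 0.032). The stimuli differed in this: with IL-21 at 4 h the mean was 8.55 in GC and 7.15 in naive cells, with IL-21 at 2 h 5.06 and 5.07, and at 4 h 1.04 and 1.26 with anti-CD40 and 5.84 and 6.0 with both. That call was lost in the fit of all 66 libraries (adjusted p = 0.084) and, with adjusted p up to 0.058, without any of 8 libraries: GC anti-CD40 2 h replicate 2, GC IL-21 2 h replicate 1, GC combination 4 h replicate 1, naive anti-CD40 2 h replicate 2 or 4 h replicate 1, naive IL-21 2 h replicate 1, and naive combination 2 h replicate 3 or 4 h replicate 2. The summed level of macrophage markers in GC and naive libraries of set A had overlapping ranges of 63.6 to 246 against 111 to 372. Other lists stood apart: with IL-21, neutrophil markers were at 56.6 to 106 in GC against 9.51 to 25.3 in naive libraries, and the 6 measured erythroid and platelet markers at 58.2 to 123 against 16.1 to 41.8. Their part in these differences was not tested.

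In set B the same comparison gave Plau at -3.69 ± 0.50, Adm at -3.07 ± 0.18, Cd63 at -2.75 ± 0.27 and Mreg at -2.70 ± 0.15 without stimulus, given here with no test. Macrophage markers did not overlap there, at 18.4 to 38.6 in unstimulated GC and 114 to 1076 in unstimulated naive libraries. Their part in these gaps was not tested. With anti-IgM plus anti-CD40 the gap for Mreg was -0.90 ± 0.15 and Gng4 was higher in GC than in naive cells by 0.68 ± 0.24. The response to anti-IgM alone was larger in naive cells for Plau, Fam83g and Spp1, with GC minus naive differences of -2.27 ± 0.71, -1.56 ± 0.17 and -1.43 ± 0.51. It was larger in GC cells for Rnf122 (1.64 ± 0.20) and Gem (1.28 ± 0.25).

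Time also separated the members. Averaged over the 3 stimuli of set A, limma called 5 members between 2 h and 4 h in GC cells (64.1% of all genes, 32.4% higher and 31.7% lower) and 8 in naive cells (69.2%, 35.3% higher and 33.8% lower). Fam167a fell by 1.73 ± 0.07 and 2.08 ± 0.07, Plau by 1.29 ± 0.18 and 2.98 ± 0.18, and Gem by 0.75 ± 0.07 and 1.10 ± 0.07 (adjusted p of 4.2e-07 or less for all 6). Naive cells at 2 h had Plau at 6.54 to 7.84 and at 4 h at 3.43 to 4.79, without overlap. Fam83g, Rnf122 and Adm fell in naive cells, by 1.26 ± 0.11, 0.92 ± 0.18 and 0.87 ± 0.27 (adjusted p = 1.5e-11, 3.6e-05 and 0.0056). Cd63 rose by 0.66 ± 0.13 and 0.70 ± 0.13, and Spp1 by 1.00 ± 0.17 and 0.89 ± 0.17, in which a fall with anti-CD40 alone is averaged with rises in both IL-21 groups. Set A has no unstimulated libraries, so time in culture and stimulus cannot be told apart there. In set B some means fell from 2 h to 4 h without stimulus. Fam167a went from 4.34 to 2.91 in GC and 4.08 to 2.83 in naive cells, and Plau from 1.47 to 0.73 and 5.49 to 4.09. Gem went from 4.0 to 3.58 and 5.4 to 4.96, and Spp1 from 3.01 to 2.36 and 3.9 to 2.51. Adm went from 3.29 to 2.08 in naive cells and from -0.63 to -0.13 in GC cells. Unstimulated naive cells showed no fall in Fam83g (3.62 and 4.06) or Rnf122 (4.74 and 4.91).

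The response to anti-IgM at 4 h can be set against that at 2 h in set B. Both use the libraries that chose the members, so these values are descriptions with no test. Unstimulated naive cells had Adm at 3.33 and 3.26 at 2 h and 1.98 and 2.19 at 4 h, while anti-IgM libraries were at 5.07 and 4.74 and then 5.18 and 5.24. The response of Adm was thus larger at 4 h by 1.51 ± 0.35, beside a lower unstimulated level and a nearly level stimulated one. For Mreg the stimulated level was 8.40 and 8.14 at 2 h and 9.42 and 9.19 at 4 h, the unstimulated level 7.33 and 7.33 and then 7.03 and 6.92, and the response was larger at 4 h by 1.39 ± 0.30. Fam83g and Gem stood the other way, at -0.74 ± 0.25 and -0.67 ± 0.35.

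With anti-IgM plus anti-CD40 in naive cells the 4 h response minus the 2 h response was 1.64 ± 0.35 for Adm, 1.64 ± 0.30 for Mreg, -1.23 ± 0.35 for Gem and -1.28 ± 0.25 for Fam83g. In GC cells it was 1.01 ± 0.30 for Mreg, -1.06 ± 0.35 for Gem and -0.99 ± 0.25 for Fam83g, and for Adm -0.68 ± 0.35, or -0.25 with readings under 0 set to 0. Both sets of values share the unstimulated libraries. Over all genes, limma called 4.07% for anti-IgM in naive cells (1.7% higher and 2.37% lower at 4 h) and 11.2% for the combination (4.53% and 6.62%), and with the replicate block, since numbers pair the libraries of set B, 20.4% and 33.6%. Among GC libraries no gene was called for anti-IgM, with 237 at an unadjusted p under 0.05 and 34 called with the block, and 0.639% were called for the combination (0.213% and 0.426%), or 7.07% with the block.

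Fam167a and Plau differed between replicates of the same group in set B. Fam167a in GC cells was higher in the lower-numbered replicate in 8 of 8 groups, by 1.57 to 2.48 and 2.12 on average, for example 7.42 against 5.85 with anti-IgM at 2 h and 4.13 against 1.70 without stimulus at 4 h. In naive cells the reverse held in 8 of 8 groups, by 1.17 to 2.23, for example 5.03 against 7.12 with anti-IgM at 2 h. By size of the mean difference it ranked 221 of 11264 genes in GC and 397 in naive cells. Within each replicate number Fam167a was higher with anti-IgM than without stimulus at both times in both cell types. Plau in naive cells was higher in the higher-numbered replicate in 8 of 8 groups, by 0.91 on average.

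Macrophage markers moved with the replicate number too. Their summed level in naive libraries of set B was 106 to 414 (median 208) in the lower-numbered replicates and 170 to 1076 (median 469) in the higher-numbered ones, with medians of 34.4 and 20.3 in GC libraries. Their part in the replicate difference of Plau and Fam167a was not tested. For Mreg in GC libraries the lower-numbered minus the higher-numbered replicate ranged from -0.55 to 0.53.

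**Figure D5:**
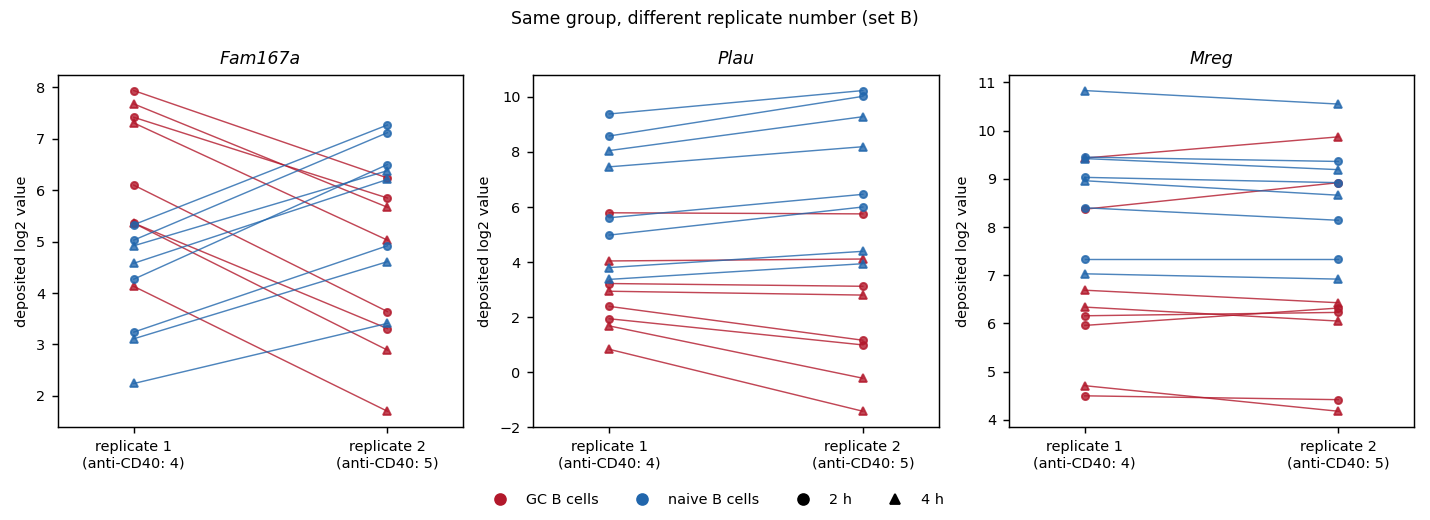
Deposited log2 values of Fam167a, Plau and Mreg in set B, with lines joining the libraries of 1 group from the lower to the higher replicate number. Fam167a slopes down in all 8 GC groups and up in all 8 naive groups, Plau slopes up in all 8 naive groups, and Mreg is nearly level.

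Genes that work with the members were counted in the anti-IgM comparison, in which limma called 9.05% of all genes among GC libraries (5.81% up, 3.23% down) and 30.4% among naive ones (15.3% up, 15.2% down). With the replicate block these totals went from 1019 to 2573 genes in GC and from 3428 to 6018 in naive cells, so the counts with the block are given where they change. Among 12 immediate targets of receptor crosslinking, 6 rose in GC and 4 in naive cells, and none fell (10 and 7 rose and 1 fell in naive cells with the block). The transcription factor Egr2 rose by 2.69 ± 0.23 and 2.34 ± 0.23 (adjusted p = 2.1e-07 and 3.4e-07), Egr1 by 2.49 ± 0.27 and 1.32 ± 0.27, and the orphan receptor Nr4a2 by 1.34 ± 0.39 and 3.13 ± 0.39. Ier2 rose in GC cells by 1.83 ± 0.23 and was at -0.01 ± 0.23 in naive cells. The median difference of the list was 1.33 in GC and 1.56 in naive cells, against -0.05 and 0 over all genes.

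Receptors for the secreted members moved in both directions. Of 8 osteopontin receptor genes, 2 fell in GC cells (1 also rose with the block), while 3 rose and 2 fell in naive cells. Itgav, the alpha V integrin chain, rose by 1.97 ± 0.42 and Cd44 by 1.64 ± 0.35 in naive cells (adjusted p = 0.0013 and 0.0012). Itga4, the alpha 4 chain, fell by 2.04 ± 0.57 in GC and 2.42 ± 0.57 in naive cells (adjusted p = 0.027 and 0.0028), and Itgb5 by 1.46 ± 0.32 in GC cells (adjusted p = 0.0051). The list's medians were -0.11 and 0.20.

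Of the 10 genes of the plasminogen activator system 4 passed the filter. Plgrkt, a plasminogen receptor, rose by 1.22 ± 0.18 in GC and 0.94 ± 0.18 in naive cells (adjusted p = 0.00014 and 0.00057), and the inhibitor Serpine2 by 1.39 ± 0.48 in naive cells (adjusted p = 0.032). Plaur, the urokinase receptor, was at 0.32 ± 0.33 and 0.31 ± 0.33, not called. Of 5 genes of the adrenomedullin receptor and its relative only Calcrl passed the filter. It rose by 0.86 ± 0.19 in GC cells (adjusted p = 0.0052) and was at -0.42 ± 0.19 in naive cells.

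Of 3 tested RGK GTPase and calcium channel genes, Rem2, a relative of Gem, rose in naive cells by 3.62 ± 0.79 (adjusted p = 0.0016) and was at 2.20 ± 0.79 in GC cells (adjusted p = 0.11; 2 of the 3 rose in GC with the block). Of 11 tested G protein beta and gamma genes none was called in GC cells (3 fell with the block). In naive cells Gng12 rose by 0.63 ± 0.22 and Gng2 and Gngt2 fell by 1.43 ± 0.31 and 0.77 ± 0.22 (5 fell with the block). The list's medians were -0.17 and -0.53.

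Among 5 tested relatives of Fam83g, Fam167a and Rnf122, Fam83f rose by 1.73 ± 0.45 and 1.84 ± 0.45 (adjusted p = 0.018 and 0.004) and Fam83h by 1.97 ± 0.49 in naive cells (adjusted p = 0.0046), and 1 fell in GC cells with the block. Of 18 tested tetraspanins 1 rose in GC cells, Tspan14, by 1.49 ± 0.10 (2 rose and 2 fell with the block). In naive cells 5 rose and 4 fell (6 and 6 with the block), among them Tspan14 (0.99 ± 0.10) and Tspan5 (0.92 ± 0.18) higher and Cd37 (-0.80 ± 0.11) lower. Of 4 tested transport partners of Mreg, Rab7, a GTPase of late endosomes, rose by 0.49 ± 0.11 and 0.41 ± 0.11 (adjusted p = 0.0051 and 0.0072), and 1 fell in naive cells with the block.

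The genes most like each member were those with the highest Pearson r over the 16 group means of set B, which share libraries, cell types and stimuli, so r is a description. Plau was most like Gch1 (0.976), Rasgef1b and Litaf, and kept an r of 0.953 to 0.969 with them over the 12 group means of set A. Mreg was most like Gpr65 (0.976), Adm like Grwd1 (0.969), Fam167a like Nampt (0.968) and Gem like Zbtb43 (0.951), followed by Egr4 and Nfatc1. Spp1 was most like Plp2 (0.948), with an r of 0.248 over set A. Cd63 was most like Mapkapk3 (0.943), Rnf122 like Hexa (0.930), Fam83g like Tagap (0.924) and Gng4 like Hook2 (0.906). Over set A the r with the most similar gene was 0.886 for Mreg, 0.9 for Adm, 0.76 for Fam167a and 0.476 for Gem. For Cd63 that r was 0.533, for Rnf122 0.816, for Fam83g 0.696 and for Gng4 0.021.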

How the data were processed

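RNA was measured by bulk RNA-seq in 66 libraries, made with a low-input SMART-Seq v4 kit per the labels' protocols. Per the submitters' processing notes, the build was mm10 and the tools named, with no order or roles, were STAR 2.6.1a, Subread 2.0.1 with featureCounts, limma, Trim Galore 0.6.5 and FastQC 0.11.7. The authors deposited log2 values, 1 column per library. Back-transformed they sum to 926830 to 1065945, and reads could not be recovered from them, so depth is unknown and no counting interval is given. Set A and set B differ in their commonest low value (-5.094 and -4.833), and within a set libraries have near-equal medians, which limits any shift of all genes.

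Genes with log2 above 1 in at least 4 libraries were tested. Each set was fitted by itself with limma 3.58.1 in R 4.3.3 (trend, robust; statmod 1.5.0), with 22 residual degrees of freedom in set A and 16 in set B. These fits had no replicate block. P-values are two-sided and Benjamini-Hochberg adjusted over 11264 genes. The fit was tested on simulated data. Members, partner lists, markers and motifs were chosen with earlier results of these data known. Named partners are up to 4 of each list, those with the smallest adjusted p; Cd68 was singled out after its values were seen. Set B libraries chose the members, so set B values of members carry no test, the planned tests of 4 h against 2 h included. The 3 most similar genes were taken for each member.

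Deviations of libraries with the same title number from their group means correlated at 0.54 to 0.73 in 32 of 32 GC pairs and 0.59 to 0.73 in 32 of 32 naive pairs of set B, but passed 0.1 in only 4 of 40 and 5 of 40 pairs of set A. Over all genes the numbers therefore pair set B only. Alternatives were other filters, no filter, centring on the median, a floor at 0, the replicate block, a fit of all libraries with a set term, and leaving out each library. Coordinates and promoters are from GENCODE vM21 and RefSeq for GRCm38, the assembly called mm10. Of 15 macrophage markers 14 were found under the symbol used.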

Additional observations from a re-analysis of the deposited data

Results flagged for a closer look

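Differences between cell types in the response were called by limma for 2 members of set A. Gem rose less in GC than in naive B cells when IL-21 was added to anti-CD40, with a difference of -0.73 ± 0.13 (adjusted p = 0.00021). Adm rose more in GC B cells when anti-CD40 was added to IL-21, by 2.40 ± 0.46 (adjusted p = 0.00037). The size of the Adm difference depends on readings under 0 in GC libraries with IL-21 alone: it was 0.89 with those set to 0, still called (adjusted p = 0.00018).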

How the results depend on the processing

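No called value of a member changed sign under any alternative run. With readings under 0 set to 0, 3 untested values of Cd63 in GC B cells did: the combination of anti-IgM and anti-CD40 minus the sum of both effects (0.45 against -0.59), and the 4 h minus 2 h response to anti-IgM (0.83 against -1.28) and to the combination (0.59 against -1.52). Counts of called genes moved most in set B. For the response to anti-IgM at 4 h minus 2 h in GC B cells the count of 0 became 3 with no filter, 4 with the floor at 0, 34 with the replicate block, 41 with the block by the numbers in the file headers (chosen after seeing the data) and 16 in the fit of all 66 libraries, and it was 0 to 1 when 1 library was left out. The naive count of 458 became 2303, 2401 and 1098 (block, header block, all libraries) and 149 to 359. For the combination at 4 h minus 2 h, the GC count of 72 became 137 with the floor, 796, 890 and 278, and 5 to 63, and the naive count of 1256 became 3780, 3879 and 2268, and 667 to 1052. For anti-IgM against none, GC went from 1019 to 2573, 2650 and 1540, and 656 to 925, with the lowest without the unstimulated GC 4 h replicate 2, and naive from 3428 to 6018 and 6080. In set A only the fit of all libraries moved counts by over 1.5 times: IL-21 added to anti-CD40 to 2006 in GC and 1208 in naive B cells, and the GC minus naive effects to 180 (IL-21 added) and 816 (anti-CD40 added). That fit also ended 7 member calls, those of Fam167a in set A's stimulus comparisons among them (adjusted p = 0.34, 0.72 and 0.59). The Fam167a differences in that fit, which has no replicate block, were -0.79, -0.44 and 0.4. Over all genes the replicate numbers of set A do not pair libraries, yet several members followed them. Replicate 1 was highest in 12 of 12 groups for Gng4, in 11 for Fam83g and in 10 for Mreg. It was highest in only 1 of 12 groups for Gem and likewise for Rnf122. The replicate block there added 10 member calls, 5 of them of Gng4: IL-21 added to anti-CD40 (-0.78 in GC, adjusted p = 1e-04, and -0.81 in naive B cells, adjusted p = 4.4e-05), 4 h against 2 h (0.44 and 0.46, adjusted p = 0.0019 and 0.0011), and the GC minus naive effect of anti-CD40 added to IL-21 (-0.77, adjusted p = 0.0058), where Cd63 was called too (-0.58, adjusted p = 0.045). With the block Rnf122 was also called in GC B cells, for IL-21 added to anti-CD40 (-0.58, adjusted p = 0.012) and 4 h against 2 h (-0.42, adjusted p = 0.013). Fam83g was called for IL-21 added to anti-CD40 in naive B cells (-0.29, adjusted p = 0.0085). Fam167a was called for the GC minus naive effect of IL-21 added to anti-CD40 (-0.4, adjusted p = 0.033). Leaving out 1 library ended the call of 4 member results for at least 1 library, 26 pairs of result and library in all. Unknown depth limits readings near or below 0. These touch Adm, Cd63 and Plau in GC B cells, and Spp1 with anti-CD40 alone at 4 h in both cell types.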
